A study of Mus musculus with 16 samples.

Results

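Expression of 10 genes that the liver is best known for was measured in the mouse heart: the clotting genes F7, Klkb1, Fga, Fgb, Fgg and F2, the tyrosine-degrading enzyme gene Tat, and the hepatocyte markers Alb, Apoa1 and Ttr. They were read by 12 of the 55681 probes on the array, found by gene name in the files. The genes were chosen by their levels and differences in T1R1 and T2R1 against control, so those contrasts are given for them as a description without a test. Of the 22763 features that entered the fit over all genes, 7 were among these 10: F7, Klkb1, Fga, Fgb, Tat, Alb and Ttr. The other 3, Fgg, F2 and Apoa1, were well above background on 10, 5 and 5 of the 16 arrays and on all 4 arrays of no group, and are given by level only.

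Whole hearts of C57BL/6 mice were studied after encounters with an aggressor mouse, 1 heart per 1-colour oligonucleotide array and 4 hearts per group. T1R1, T2R1 and T3R1 mice met the aggressor on 1, 2 or 3 days, being boxed in its cage and bitten, with 1 day of rest after that. For control mice the box stood in a cage that held no aggressor, and their labels name the schedule of T2R1 alone, so T1R1 and T3R1 lacked a control of the same duration. The protocol text speaks of more days than any group name, and the groups are given here as named. T1R1 and T2R1 were read on slide 2, and T3R1 and control on slide 1, so exposure and slide cannot be told apart in T1R1 or T2R1 against control. The age and sex of the animals are not given in the sources used here.

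From 46.5% to 67.1% of the spots were well above background, and the number of arrays limits the precision. Control replicate 1 stood apart: its 75th percentile of spot brightness came to 551 scanner units, beside 258 to 273 in control replicates 2 to 4 and 286 to 408 on the exposed arrays. All 7 heart muscle markers were detected, with summed levels between 12.17 and 12.34 in T1R1, 12.29 and 12.50 in T2R1, 11.78 and 12.35 in T3R1, and 11.52 and 12.66 in control hearts. Control replicate 1 was the lowest heart (11.52), followed by T3R1 replicate 3 (11.78) and T3R1 replicate 1 (11.86). Levels here are log2 of the processed signal minus the 75th percentile of the same array, so that 0 is the brightness of that percentile. Levels of different probes are not comparable with each other. In whole tissue, a change in the share of a cell type and a change in RNA per cell cannot be told apart.

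Blood clots when a cascade of proteases ends in thrombin, which cuts fibrinogen into fibrin. F7 encodes factor VII, which starts the cascade together with tissue factor, Klkb1 encodes the plasma prekallikrein of the contact pathway, F2 encodes prothrombin, and Fga, Fgb and Fgg encode the chains of fibrinogen. Hepatocytes make nearly all of these plasma proteins, together with albumin (Alb), the main protein of high-density lipoprotein (Apoa1) and the thyroxine and retinol carrier transthyretin (Ttr), under transcription factors such as HNF1, HNF4 and C/EBP. Transcripts of this kind in heart tissue are usually sparse.

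The 250 bases before the start of Alb, Fgb, Fga and F7 are shown because these genes behaved differently from heart to heart: Alb and Fgb varied together, whereas Fga and F7, as read by their main probes, correlated with Alb at 0.02 and 0.14 over 16 arrays. They come from RefSeq on the GRCm38.p6 build, 5′ to 3′ along each gene, from chr5:90460620-90460869 on the plus strand, chr3:83049864-83050113 on the minus strand, chr3:83025903-83026152 on the plus strand and chr8:13025784-13026033 on the plus strand. Capitals mark matches, on either strand, to the HNF1 motif GTTAAT, the C/EBP motif TTNNGCAA and the IL6-response motif CTGGGA.
Alb: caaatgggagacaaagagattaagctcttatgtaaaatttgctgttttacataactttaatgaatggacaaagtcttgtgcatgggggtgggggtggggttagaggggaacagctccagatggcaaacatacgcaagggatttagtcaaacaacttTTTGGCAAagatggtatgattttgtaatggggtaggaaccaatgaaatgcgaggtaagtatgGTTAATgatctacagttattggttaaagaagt
Fgb: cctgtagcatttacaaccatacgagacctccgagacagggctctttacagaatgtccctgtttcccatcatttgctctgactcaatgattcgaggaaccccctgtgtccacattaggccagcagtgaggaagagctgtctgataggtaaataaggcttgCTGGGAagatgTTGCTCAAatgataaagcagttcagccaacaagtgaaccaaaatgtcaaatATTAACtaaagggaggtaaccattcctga
Fga: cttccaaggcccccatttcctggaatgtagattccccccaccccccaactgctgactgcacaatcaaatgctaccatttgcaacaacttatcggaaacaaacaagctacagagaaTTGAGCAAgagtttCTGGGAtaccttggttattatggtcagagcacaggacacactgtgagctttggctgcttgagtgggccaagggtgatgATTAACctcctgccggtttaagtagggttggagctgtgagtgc
F7: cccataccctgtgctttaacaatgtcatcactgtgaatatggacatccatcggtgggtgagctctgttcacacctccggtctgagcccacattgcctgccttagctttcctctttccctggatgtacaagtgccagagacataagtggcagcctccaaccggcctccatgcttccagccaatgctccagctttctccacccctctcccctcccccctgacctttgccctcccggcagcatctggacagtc

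Alb, Fgb and Fga each held the HNF1 motif, 32, 29 and 43 bases before the start, and the C/EBP motif 94, 80 and 135 bases before it. Among 32851 RefSeq promoters of the same length the HNF1 motif was found in 6.43% and the C/EBP motif in 9.56%. None of the motifs searched was in the F7 window, and forms of these motifs with other letters were not searched. Over the 9 genes with a RefSeq promoter, HNF1 matched in 3 (Alb, Fgb and Fga), C/EBP in 4 (these and Klkb1), and the IL6-response motif in 6 (Klkb1, Fga, Fgb, Fgg, Tat and Apoa1; 27.0% of all promoters). The glucocorticoid receptor motif TGTTCT matched in 2 (Fgg and F2; 16.1% of all promoters), and the HNF4 motif CAAAGTCCA in 0 (0.384% of all promoters). No match overlapped another. Fga held both motifs, as Alb and Fgb did. A match is a description of letters and was not tested as a binding site.

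Hepatocyte transcripts differed far more between single hearts than between groups. Alb stood at -0.45, -4.09, -0.72 and 3.62 in T1R1, 0.87, -0.45, -1.89 and -0.98 in T2R1, 3.08, -3.49, 1.29 and -1.50 in T3R1, and 0.83, -2.99, -2.68 and -4.34 in control hearts, in the order of replicates 1 to 4, as in all such sentences here. Control replicate 4 was lowest and not well above background; over the other 15 hearts Alb spanned 209-fold, with T1R1 replicate 4 highest. The groups overlapped, and the hearts of a single group differed by up to 7.71 log2 units. Alb averaged -0.41 ± 3.16 in T1R1, -0.61 ± 1.15 in T2R1, -0.16 ± 2.92 in T3R1 and -2.30 ± 2.20 in control hearts (SD, n = 4 each).

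Apoa1 gave -4.50, -5.73, -3.75 and -1.29 in T1R1, -3.43, -4.97, -5.56 and -5.31 in T2R1, -2.61, -6.71, -4.12 and -5.72 in T3R1, and -4.03, -6.24, -5.58 and -6.17 in control hearts. Apoa1 was well above background on 5 arrays: T1R1 replicate 4, T3R1 replicate 1, T2R1 replicate 1, control replicate 1 and T3R1 replicate 3. T1R1 replicate 4 and T3R1 replicate 1 were the highest 2 hearts for Apoa1, as for Alb. Ttr gave -1.49, -2.82, -0.40 and 1.59 in T1R1, -0.16, -0.91, -2.38 and -2.38 in T2R1, 0.34, -2.99, -0.97 and -2.81 in T3R1, and -0.89, -3.01, -2.87 and -2.77 in control hearts. Ttr exceeded background on every array, its span was 24.3-fold, and T1R1 replicate 4 was again highest, with the 4 groups overlapping.

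The fibrinogen genes Fgb and Fgg, and the prothrombin gene F2, followed these markers. The probes of Fga differed in this and are described below. Fgb was -3.27, -4.23, -1.80 and 1.50 in T1R1, -0.94, -2.34, -3.40 and -2.995 in T2R1, 0.03, -3.49, -1.53 and -3.35 in T3R1, and -1.81, -4.93, -3.75 and -6.62 in control hearts. Its lowest values, in control replicates 2 and 4, were not well above background, and over the other 14 arrays it spanned 52.9-fold. Fgg was -3.55, -6.57, -2.69 and 1.38 in T1R1, -1.11, -3.28, -4.29 and -3.36 in T2R1, -0.49, -7.19, -2.24 and -3.84 in T3R1, and -2.11, -5.26, -5.03 and -6.69 in control hearts. On 6 arrays it was not well above background, and over the other 10 it spanned 37.2-fold. F2 was -4.76, -5.92, -4.67 and -0.07 in T1R1, -2.42, -4.55, -5.82 and -4.69 in T2R1, -1.35, -6.83, -2.60 and -5.01 in T3R1, and -3.11, -6.55, -6.70 and -6.50 in control hearts, and was well above background on the same 5 arrays as Apoa1. For all 3 genes T1R1 replicate 4 was the highest heart of the 16, and T3R1 replicate 1 the next highest.

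**Figure D1:**
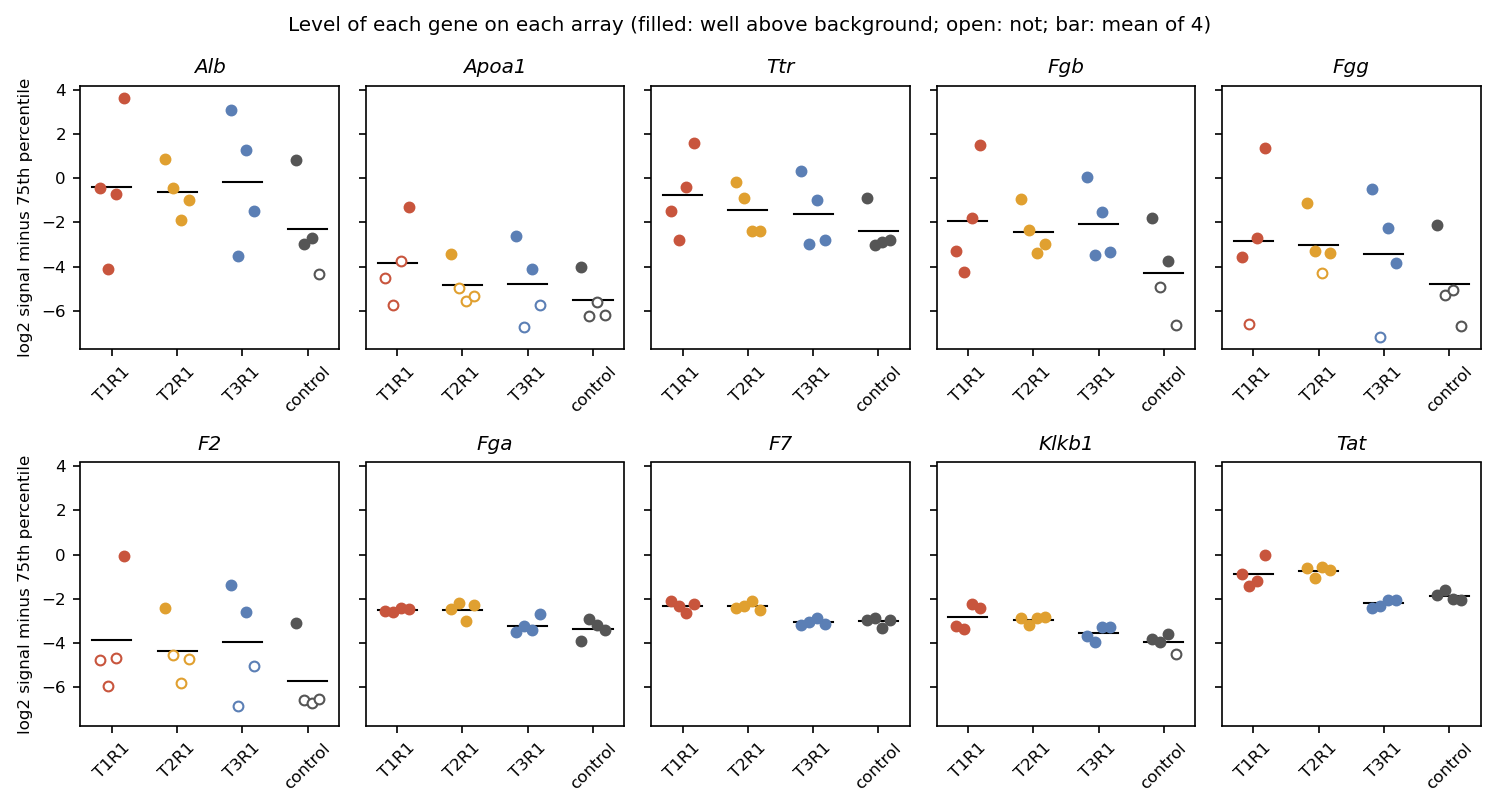
Level of each of the 10 genes on each of the 16 arrays, as log2 processed signal minus the 75th percentile of the array, by group; filled points were well above background, open points were not, and bars are means of 4. Alb spans 209-fold over the 15 hearts where it was well above background, with overlapping groups, whereas F7 by its main probe spans 2.32-fold. By that probe all 8 T1R1 and T2R1 hearts (slide 2) lie above all 8 T3R1 and control hearts (slide 1), as for 6.67% of all features.

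The log2 fold changes of these genes against control were accordingly large and imprecise. In T1R1 they were 2.33 ± 1.23 for Fgb, 1.89 ± 1.61 for Alb and 1.61 ± 0.93 for Ttr (limma, SE, n = 4 per group). In T2R1 they were 1.85 ± 1.23, 1.69 ± 1.61 and 0.93 ± 0.93. T3R1 against control, which lay within 1 slide, gave 2.19 ± 1.23 for Fgb, 2.14 ± 1.61 for Alb and 0.78 ± 0.93 for Ttr. Single hearts decided these values: without T1R1 replicate 4 the T1R1 fold change was 1.18 for Fgb, 0.54 for Alb and 0.82 for Ttr, without control replicate 4 the T2R1 fold change was 1.07 for Fgb and 1.00 for Alb, without T2R1 replicate 1 it was 0.50 for Ttr, and without T3R1 replicate 1 the T3R1 fold change was 1.06 for Alb and 0.13 for Ttr. Without control replicate 1 they were higher, at 3.15, 2.93 and 2.10 for Fgb, Alb and Ttr in T1R1, 2.68, 2.73 and 1.43 in T2R1, and 3.01, 3.18 and 1.28 in T3R1. Fgb and Alb were well above background on 2 and 3 of the 4 control arrays, and on all 4 arrays of each exposed group. They thus entered the fit through the exposed groups, and their control means hold values near background. Alb was higher than the control mean of -2.30 in 3 of 4 T1R1, 4 of 4 T2R1 and 3 of 4 T3R1 hearts.

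Klkb1 and the main probes of F7 and Fga had small spans and a step between groups. F7 stood at -2.10, -2.33, -2.62 and -2.23 in T1R1, -2.42, -2.32, -2.10 and -2.48 in T2R1, -3.20, -3.06, -2.85 and -3.11 in T3R1, and -2.95, -2.86, -3.31 and -2.93 in control hearts. Its whole span over the 16 hearts was 2.32-fold, and every T1R1 and T2R1 heart was above every T3R1 and control heart. The same held for 6.67% of all features, and not for the second probe of F7, described below. F7 was 0.69 ± 0.13 in T1R1 and 0.68 ± 0.13 in T2R1 against control on the log2 scale, and its within-group SD was 0.19.

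Klkb1 was -3.23, -3.35, -2.21 and -2.40 in T1R1, -2.86, -3.20, -2.87 and -2.80 in T2R1, -3.69, -3.93, -3.28 and -3.26 in T3R1, and -3.82, -3.95, -3.57 and -4.50 in control hearts. Control replicate 4 was not well above background, so Klkb1 entered the fit through the exposed groups, and the other 15 hearts spanned 3.34-fold. All T1R1 and all T2R1 hearts were above all control hearts, with T3R1 hearts overlapping both T1R1 and control hearts, and its log2 fold change against control was 1.16 ± 0.26 in T1R1 and 1.03 ± 0.26 in T2R1. Fga, by its main probe, was -2.55, -2.60, -2.40 and -2.43 in T1R1, -2.47, -2.19, -2.995 and -2.28 in T2R1, -3.49, -3.22, -3.43 and -2.70 in T3R1, and -3.89, -2.90, -3.17 and -3.42 in control hearts, a span of 3.24-fold. All 4 T1R1 hearts were above the control hearts, whereas T2R1 replicate 3 was below control replicate 2. The log2 fold change of Fga was 0.85 ± 0.22 in T1R1 and 0.86 ± 0.22 in T2R1.

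Tat encodes the enzyme that opens the breakdown of tyrosine and is a classic glucocorticoid-induced gene of the liver. Its levels were -0.88, -1.42, -1.19 and -0.01 in T1R1, -0.60, -1.05, -0.55 and -0.71 in T2R1, -2.39, -2.31, -2.07 and -2.03 in T3R1, and -1.82, -1.59, -2.02 and -2.04 in control hearts. As for the main probe of F7, all 8 hearts of T1R1 and T2R1 were above all 8 of T3R1 and control, as for 6.67% of all features. Tat was 0.99 ± 0.24 higher in T1R1 and 1.14 ± 0.24 higher in T2R1 than in control hearts on the log2 scale.

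Over all features, all 4 T1R1 arrays were above all 4 control arrays for 9.75%, and all 4 T2R1 arrays for 18.1%; all 8 arrays of T1R1 and T2R1 were above all 8 of T3R1 and control for 6.67%. At an adjusted p under 0.05, 9.85% of features were called in T1R1 against control (7.74% higher and 2.11% lower), 18.4% in T2R1 against control (14.8% higher and 3.58% lower) and 0.694% in T3R1 against control (0.505% higher and 0.189% lower). Without control replicate 1 the count of calls was 4059 in place of 2242 in T1R1, 5545 in place of 4187 in T2R1 and 6695 in place of 158 in T3R1. No gene of the 7 in the fit had all 4 T3R1 arrays above control, as 3.19% of features did. Among these 7, F7, Klkb1, Fga and Tat were the ones whose T1R1 arrays all lay above control, and F7, Klkb1 and Tat those whose T2R1 arrays did; since these contrasts chose the genes, nothing is read from these counts.

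The 4 genes with small spans were also compared within the slides. For T3R1 against control the log2 fold change was -0.04 ± 0.13 for F7, 0.42 ± 0.26 for Klkb1, 0.14 ± 0.22 for Fga and -0.33 ± 0.24 for Tat (limma, SE, n = 4 per group). T2R1 against T1R1, within the other slide, gave -0.01 ± 0.13 for F7, -0.13 ± 0.26 for Klkb1, 0.01 ± 0.22 for Fga and 0.15 ± 0.24 for Tat. Fgb, Alb and Ttr gave -0.47 ± 1.23, -0.20 ± 1.61 and -0.68 ± 0.93 there. In that contrast limma called 0 of all features (0%), and 1782 had an unadjusted p under 0.05. Each of these contrasts lies within 1 slide. The levels of all 4 groups were read when the genes were chosen, so neither contrast is a test for these genes.

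The split of the genes is seen in how much of their variation lay between groups. It was 82.7% for F7, 80.8% for Tat, 65.5% for Fga and 65.1% for Klkb1, and nearly all of that lay between the slides (82.5%, 77.4%, 64.5% and 57.9%). For the other 6 genes 11.1% to 24.6% lay between groups and 2.41% to 10.4% between slides. The groups were part of the choice of the genes, so these shares are a description.

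**Figure D2:**
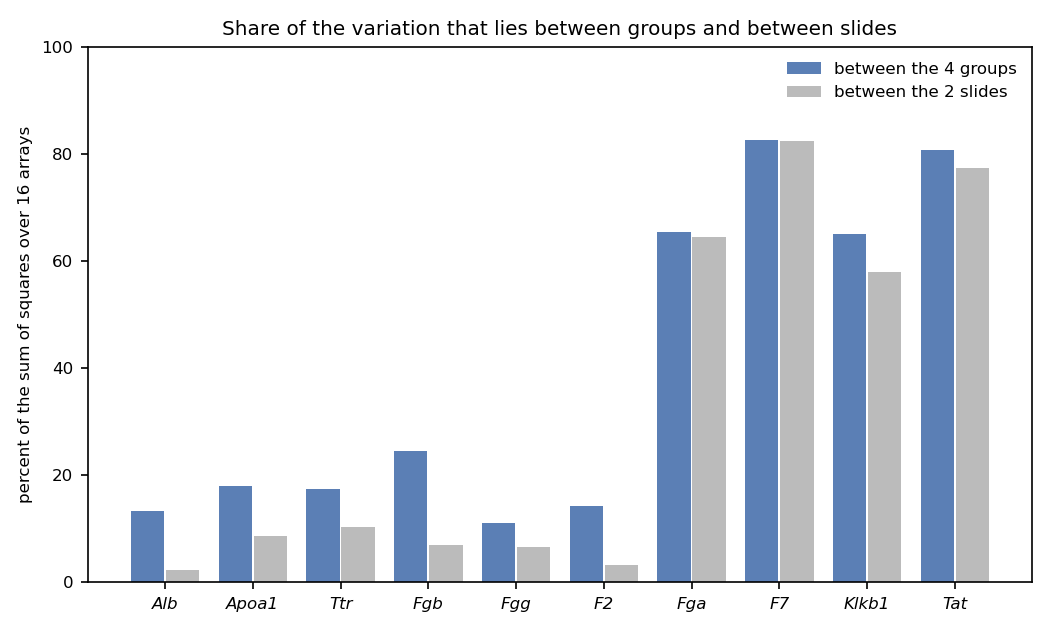
Percent of each gene's sum of squares over 16 arrays that lies between the 4 groups (blue) and between the 2 slides (grey). F7, Klkb1, Tat and the main probe of Fga have 65.1% to 82.7% between groups, most of it between slides; the other 6 genes have at most 24.6%.

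The 4 genes with small spans depended on how the arrays were scaled, as the plot by scaling shows. F7 in T1R1 against control was 0.69 on the log2 scale with the 75th percentile, 0.35 with normexp background correction, 0.35 with quantile normalization, 0.26 with the median of each array and 0.26 in the authors' deposited table of normalized values. Klkb1 was 1.16, 0.35, 0.76, 0.73 and 0.34 under the same settings, and Fga was 0.85, 0.37, 0.48, 0.42 and 0.19. Tat was 0.99, 0.74, 0.86, 0.56 and 0.75. In T2R1 against control the values were 0.68, 0.33, 0.36, 0.30 and 0.26 for F7, 1.03, 0.27, 0.63, 0.64 and 0.21 for Klkb1, 0.86, 0.38, 0.51, 0.48 and 0.21 for Fga, and 1.14, 0.86, 1.00, 0.75 and 0.88 for Tat. All were above 0. The share of called features that were higher also moved: in T1R1 it was 78.6%, 51.0%, 52.3%, 5.79% and 45.7%, and in T2R1 80.5%, 68.0%, 61.7%, 15.2% and 56.7%. With the median of each array the median log2 fold change over all features was -0.44 in T1R1 and -0.37 in T2R1, so relative to that shift F7 was 0.70 and 0.66 higher. With the 75th percentile the shift was -0.01 and 0.02. The shift was also near 0 with normexp (0.01 and 0.02), quantile normalization (-0.02 and -0.01) and the authors' values (-0.01 and -0.01), where F7 was lower than with the 75th percentile. With the 75th percentile and no filter on dim probes the shift was 0.17 in T1R1 and 0.14 in T2R1, and 88.6% and 87.7% of called features were higher.

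**Figure D3:**
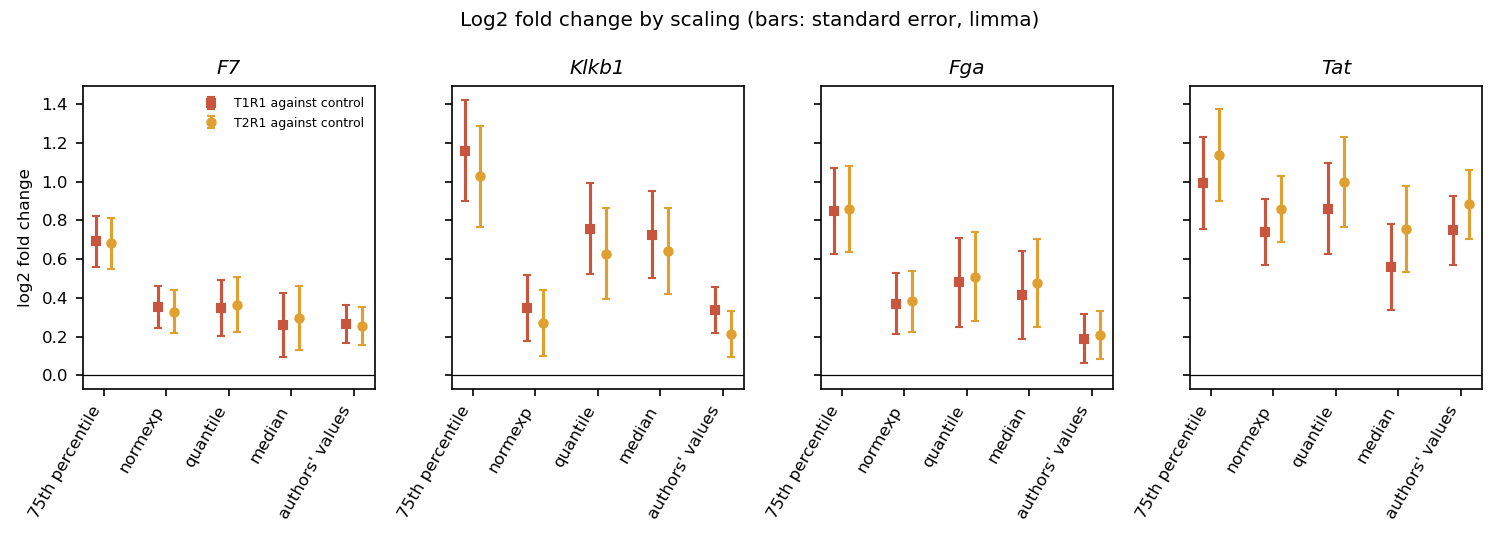
Log2 fold change against control of F7, Klkb1, Fga and Tat in T1R1 (squares) and T2R1 (circles) under 5 scalings of the same arrays; bars are standard errors (limma, n = 4 per group). F7 in T1R1 is 0.69 with the 75th percentile and 0.26 with the authors' values; Tat in T1R1 stays between 0.56 and 0.99.

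To ask whether the clotting genes and Tat vary from heart to heart as hepatocyte transcripts do, each was set against the mean level of Alb and Apoa1 over the 16 arrays. This comparison was part of how the genes were chosen, so its correlations are a description without a test. Ttr, Fgb, Fgg and F2 followed the marker closely: Pearson r was 0.95 for Ttr, 0.94 for Fgb, 0.98 for Fgg and 0.97 for F2, and Spearman's rho was 0.90, 0.97, 0.99 and 0.95. Within the slides r was between 0.92 and 0.98 in slide 1 and between 0.96 and 0.99 in slide 2 (n = 8 each), and the lowest rho was that of Ttr in slide 1, at 0.71. Many low values of Apoa1, Fgg and F2 were not well above background. Without the 2 arrays farthest from the median marker level, T1R1 replicate 4 and T3R1 replicate 1, r was 0.91 for Ttr, 0.89 for Fgb, 0.97 for Fgg and 0.94 for F2. With deviations from the group means in place of levels, r was 0.94 to 0.99.

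F7 and the main probe of Fga had low correlations with the marker. Pearson r was 0.18 for F7 and 0.05 for Fga, and Spearman's rho was 0.19 and 0.12. Within slide 1 r was -0.09 for F7 and -0.51 for Fga, and within slide 2 it was 0.01 and 0.30. Without the 2 farthest arrays r was 0.26 for F7 and 0.10 for Fga. T3R1 replicate 1, for example, had a level of 3.08 for Alb, while its -3.20 for F7 and -3.49 for Fga lay inside the range of the other 7 hearts of its slide.

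Klkb1 and Tat lay between these patterns. Klkb1 gave r = 0.51 and rho = 0.53, with r = 0.49 within slide 1, 0.61 within slide 2 and 0.56 without the 2 farthest arrays. With normexp it was 0.19. Leaving out control replicate 1 or T3R1 replicate 1 gave r = 0.57 and 0.65, and leaving out T1R1 replicate 4 gave 0.37. Tat gave r = 0.34 and rho = 0.26, and r = 0.37 without the 2 farthest arrays. Within the slides it gave r = -0.29 in slide 1 and r = 0.77 in slide 2, where rho was 0.43. The difference between slides was not tested. Without T1R1 replicate 4, the heart highest in both Alb and Tat, r over all arrays was 0.07, and without T3R1 replicate 1 it was 0.59.

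**Figure D4:**
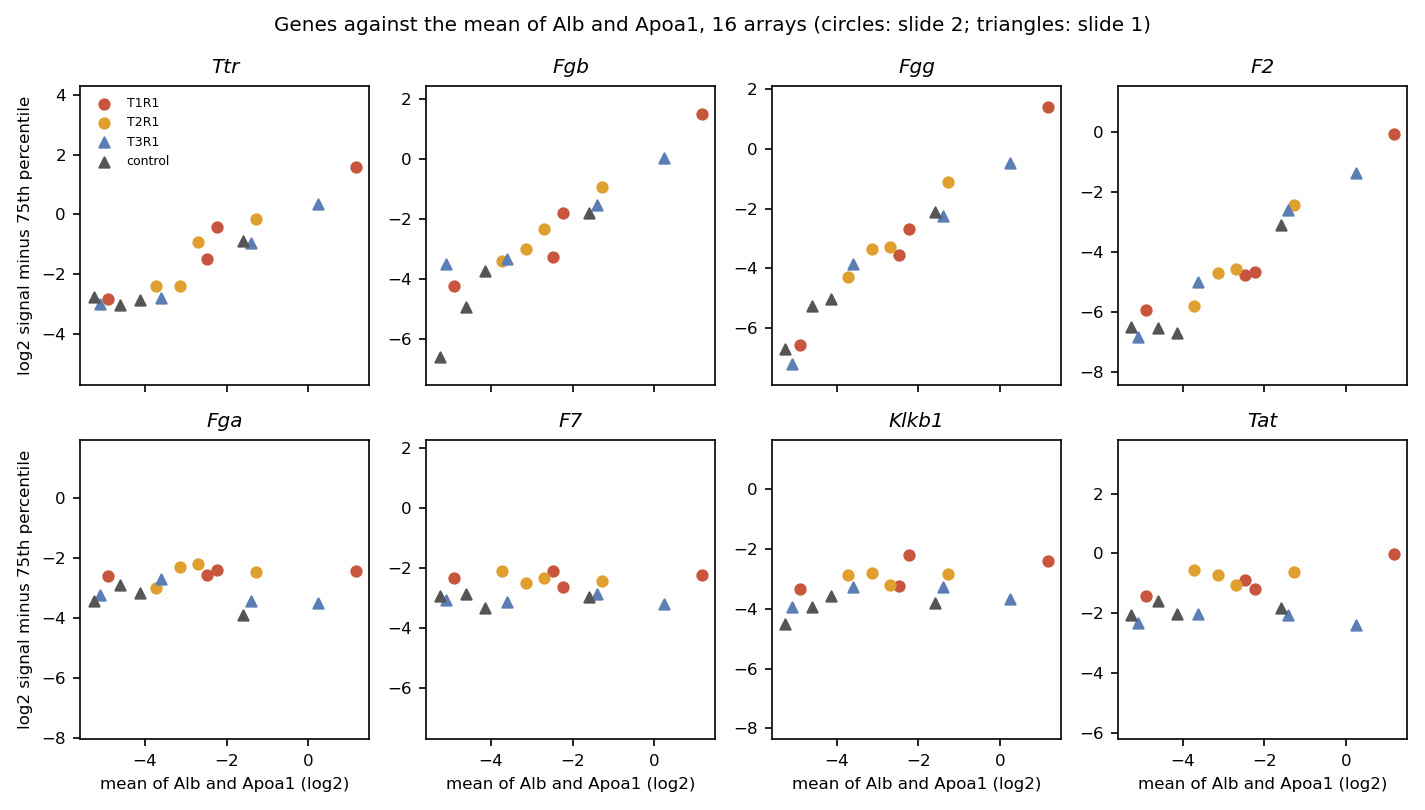
Level of 8 genes against the mean level of Alb and Apoa1 on 16 arrays, both as log2 signal minus the 75th percentile; circles are slide 2 (T1R1 and T2R1), triangles slide 1 (T3R1 and control), and every panel spans the same number of log2 units. Ttr, Fgb, Fgg and F2 rise with the marker (r 0.94 to 0.98). F7 and Fga, by their main probes, have r of 0.18 and 0.05 and are on average higher in the circles.

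Fga and F7 each had a second probe, and the probes of a gene did not agree. The F7 probes overlap, and are shown because probes only 30 bases apart gave different values; both lie on the plus strand of the mm9 build, at chr8:13035287-13035346 for the main probe and chr8:13035257-13035316 for the second, and capitals mark the 30 bases they share.
F7 main probe: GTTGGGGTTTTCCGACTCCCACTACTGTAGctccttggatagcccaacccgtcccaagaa
F7 second probe: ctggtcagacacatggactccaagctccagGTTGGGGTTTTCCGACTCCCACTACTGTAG

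The main F7 probe was well above background on 16 arrays and the second on 12. The second F7 probe gave -3.64, -3.32, -5.16 and -3.90 in T1R1, -3.52, -3.41, -1.11 and -3.94 in T2R1, -4.38, -3.79, -3.57 and -4.28 in T3R1, and -3.75, -5.31, -4.50 and -6.27 in control hearts. Its highest value was T2R1 replicate 3, its groups overlapped, and its span over the 12 arrays where it was well above background was 10.5-fold, against 2.32-fold for the main probe over 16. The correlation between the F7 probes over 16 arrays was 0.55, and that of the second probe with the mean of Alb and Apoa1 was 0.15. Only the main F7 probe separated the slides. In a fit of each probe on its own, the second probe of F7 was 0.96 ± 0.63 in T1R1 and 1.96 ± 0.63 in T2R1 against control on the log2 scale.

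The Fga probes lie further apart, at chr3:82837260-82837319 (main) and chr3:82835678-82835737 (second) of mm9, and the array design assigns both to the same transcript, 1582 bases from each other. The gene is known to give a common and a longer form of the fibrinogen alpha chain that differ at their ends, and which form each probe reads was not tested. The second Fga probe was well above background on 9 arrays and on all 4 arrays of no group, and gave -4.34, -4.21, -4.82 and -2.52 in T1R1, -3.76, -3.80, -4.18 and -4.32 in T2R1, -3.64, -5.38, -4.37 and -4.94 in T3R1, and -4.66, -4.19, -4.83 and -6.05 in control hearts. Its highest heart was T1R1 replicate 4, as for Alb, Fgb and Fgg. Its r with the mean of Alb and Apoa1 was 0.74, against 0.05 for the main probe, and the probes correlated with each other at 0.41 over 16 arrays. By its second probe Fga varied with the hepatocyte markers over the 16 arrays, and by its main probe it did not. The r of the second probe includes values near background, such as the lowest, control replicate 4 (-6.05). It was not computed within the slides or with arrays left out.

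The other probes lie on mm9 at chr8:46355052-46355111 (Klkb1), chr3:82846334-82846393 (Fgb), chr3:82818825-82818884 (Fgg), chr2:91465510-91465569 (F2), chr8:112523207-112523266 (Tat), chr5:90901598-90901657 (Alb) and chr9:46037921-46037980 (Apoa1). Fga, Fgb and Fgg lie next to each other on chromosome 3, and Fgb and Fgg correlated with each other at 0.92 over the 16 arrays. Fga by its main probe correlated with Fgb at 0.13 and with Fgg at 0.14. F7, Klkb1 and Tat are all on chromosome 8, far apart. F7 correlated at 0.88 with Tat, at 0.59 with Klkb1 and at 0.65 with Fga, values that the step between slides enters.

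Which named genes were most like these patterns was listed over 15641 named features outside the 10 genes. Nearest to the mean of Alb and Apoa1 were the protease inhibitor genes Serpina1d (r = 0.99), Serpina1a (0.98), Serpina1c (0.97), Serpina1e (0.97) and Serpina3k (0.97), the complement C5 gene Hc (0.98), the apolipoprotein gene Apoc3 (0.96), the haem scavenger gene Hpx (0.95), the major urinary protein gene Mup3 (0.94) and Slc27a5 (0.94), a bile acid enzyme. The Serpina1 genes are near-identical copies, so their probes may read each other's transcripts and their separate values are uncertain. Serpina1a spanned -0.89 to 5.19 over the 16 hearts. In all, 18 features had an r over 0.9 and 46 over 0.8 of 22763. Nearest to F7 were Sorcs1 (0.95), Morn3 (0.95), Tmc2 (0.95), Olfr635 (0.94) and Rnf148 (0.94). All of these were dim, with levels between -4.34 and -1.07 over the 16 hearts, as was F7 (-3.31 to -2.10). These correlations are over 16 arrays that share 2 slides and carry no test.

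Other plasma clotting genes made by the liver were read for comparison, from a list of 23 genes of which 17 passed the filter. In this list and those that follow, T1R1 and T2R1 against control compare different slides. A rise or fall there cannot be assigned to exposure rather than slide. Cpb2, the fibrinolysis inhibitor TAFI, was 1.16 ± 0.25 higher in T1R1 (log2, adjusted p = 0.00969) and 1.20 ± 0.25 higher in T2R1 (adjusted p = 0.00434) than in control hearts. F9, factor IX, was 0.59 ± 0.13 higher in T1R1 (adjusted p = 0.0144) and 0.79 ± 0.13 higher in T2R1 (adjusted p = 0.00136). Hrg, histidine-rich glycoprotein, was 0.85 ± 0.23 higher in T2R1 (adjusted p = 0.0207), and gave 0.78 ± 0.23 in T1R1 (adjusted p = 0.0501). Hgfac, the activator of hepatocyte growth factor, gave 0.85 ± 0.27 in T1R1 (adjusted p = 0.0596), and the factor V gene F5 gave 0.78 ± 0.31 in T2R1 (adjusted p = 0.0946). In all, 2 of 17 rose in T1R1, beside 7.74% of all features, and 3 of 17 in T2R1, beside 14.8%, and 0 fell in either (limma, Benjamini-Hochberg).

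The median log2 fold change of these 17 genes was 0.53 in T1R1, 0.42 in T2R1 and 0.07 in T3R1, beside -0.01, 0.02 and -0.08 over all features. None passed in T3R1 against control, where the smallest p values were those of Vtn (vitronectin, -0.61 ± 0.16, adjusted p = 0.0657), Pros1 (protein S, 0.35 ± 0.12, adjusted p = 0.121), Serpind1 (heparin cofactor II, 1.38 ± 0.48, adjusted p = 0.123) and F9 (-0.32 ± 0.13, adjusted p = 0.178). Without control replicate 1 all of these 4 passed, at -0.77 for Vtn, 0.50 for Pros1, 1.80 for Serpind1 and -0.46 for F9. Cpb2 in T1R1 and T2R1 kept its call under every scaling, at 0.67 to 1.20 on the log2 scale, whereas F9 in T1R1 was 0.39 with normexp (adjusted p = 0.0659) and 0.15 with the median of each array (adjusted p = 0.395). Hrg in T2R1 lost its call with quantile normalization (0.64, adjusted p = 0.0743), with the median of each array (0.47), and without control replicate 4, T2R1 replicate 3 or T2R1 replicate 4. The r of these genes with the mean of Alb and Apoa1 ranged from -0.29 (F10, factor X) to 0.85 (Proc, protein C), with 0.03 for F9 and 0.42 for Cpb2.

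Clotting genes of the vessel wall and of platelets were also read. Of 15 tested, 0 passed in T1R1, 1 rose in T2R1, beside 14.8% of all features, and 1 fell in T3R1, beside 0.189%. Gp1bb, a platelet receptor subunit, was 0.95 ± 0.29 higher in T2R1 (adjusted p = 0.0362), and Thbd, thrombomodulin, was 0.48 ± 0.10 lower in T3R1 (log2 fold change -0.48, adjusted p = 0.0498). Gp1bb lost its call under the 4 other scalings, where it was 0.56 to 0.77, and without control replicate 1, 3 or 4 or T2R1 replicate 1, 2 or 4. Thbd lost its call without control replicate 2, 3 or 4, T1R1 replicate 1, 3 or 4, or any single array of T2R1 or T3R1. F3, tissue factor, the partner of factor VII, gave -0.45 ± 0.16 in T1R1 (adjusted p = 0.0912), -0.45 ± 0.16 in T2R1 (adjusted p = 0.0628) and -0.53 ± 0.16 in T3R1 (adjusted p = 0.0922). Without control replicate 1 it passed in all 3, at -0.60, -0.61 and -0.68. The median log2 fold change of the list was -0.08, 0.04 and 0.34 in T1R1, T2R1 and T3R1.

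Other hepatocyte genes numbered 46, of which 44 were on the array and 32 were tested. Apoa5, an apolipoprotein that controls triglycerides, was 0.93 ± 0.20 higher in T1R1 (adjusted p = 0.0103) and 1.15 ± 0.20 higher in T2R1 (adjusted p = 0.00165). Itih1, an inter-alpha-trypsin inhibitor chain, was 0.76 ± 0.21 higher in T1R1 (adjusted p = 0.0349) and 0.95 ± 0.21 higher in T2R1 (adjusted p = 0.00657). G6pc, glucose-6-phosphatase, was 0.69 ± 0.21 higher in T2R1 (adjusted p = 0.0319). With Asgr1 in T1R1 (1.31 ± 0.44, adjusted p = 0.0723) and Apoa2 in T2R1 (0.61 ± 0.21, adjusted p = 0.055) not passing, 3 of 32 rose in each of T1R1 and T2R1, 0 fell, and 0 passed in T3R1 (limma), beside 7.74%, 14.8% and 0.694% of all features. Apoa5, Itih1 and G6pc had an r of 0.20, 0.17 and 0.32 with the mean of Alb and Apoa1, while 13 of the 32 genes had an r over 0.8. The list's median r was 0.70 and its median log2 fold change 0.80, 0.63 and 0.29 in T1R1, T2R1 and T3R1.

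The calls of Apoa5, Itih1 and G6pc depended on the scaling. Apoa5 in T1R1 lost its call under the 4 other scalings, at 0.16 to 0.50, and in T2R1 only with the values of the authors' deposited table, at 0.31 (adjusted p = 0.0861). Itih1 in T1R1 lost its call under all 4 other scalings, at 0.33 to 0.53, and in T2R1 with the median of each array, at 0.57. G6pc in T2R1 lost its call under those 4 scalings too, and without any of control replicates 1, 2 or 4 or T2R1 replicates 1, 2 or 4. Itih1 in T1R1 lost its call without control replicate 3 or 4 or T1R1 replicate 1, 3 or 4. In T3R1 the urea cycle genes Arg1 and Ass1 gave 3.84 ± 1.46 (adjusted p = 0.148) and 1.17 ± 0.45 (adjusted p = 0.15), and Ambp, the precursor of alpha-1-microglobulin and bikunin, gave 2.66 ± 1.45 (adjusted p = 0.289). Without control replicate 1 Arg1 and Ass1 passed there, at 5.59 and 1.63.

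Genes that inflammation induces in the liver, of which 17 were tested, gave a further view of Fga, Fgb and Fgg, which are acute-phase genes as well. Apcs, serum amyloid P, was 1.25 ± 0.23 higher in T1R1 (adjusted p = 0.00486) and 1.32 ± 0.23 higher in T2R1 (adjusted p = 0.00177). In T2R1 Lcn2, lipocalin 2, was 2.57 ± 0.71 higher (adjusted p = 0.0209), Serpina3n 2.18 ± 0.69 higher (adjusted p = 0.0419), and Hamp, the iron hormone hepcidin, 0.90 ± 0.27 lower (log2 fold change -0.90, adjusted p = 0.0305). In all, 1 gene of 17 rose in T1R1, beside 7.74% of all features, and 3 rose and 1 fell in T2R1, beside 14.8% and 3.58%. In T3R1 none passed, with 2.77 ± 0.69 for Serpina3n (adjusted p = 0.063) and 2.76 ± 0.71 for Lcn2 (adjusted p = 0.0656), and both passed there without control replicate 1, at 3.51 and 3.57. Lcn2 in T2R1 lost its call without control replicate 2, 3 or 4 or T2R1 replicate 4, Serpina3n without control replicate 2, 3 or 4, T2R1 replicate 1, 2 or 4, T1R1 replicate 4 or T3R1 replicate 2, and Hamp without control replicate 2 or 4 or T2R1 replicate 2. Serpina3n in T2R1 also lost its call with normexp (1.81), quantile normalization, no filter on dim probes, only the 2 groups in the fit, the replicate block, and the Alb and Apoa1 level as a covariate (2.01), at adjusted p between 0.0525 and 0.0712, and Hamp with no filter and with only the 2 groups (adjusted p = 0.0525 and 0.106). Apcs in T1R1 lost its call with normexp, quantile normalization and the authors' values, at 0.49, 0.85 and 0.47.

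Genes induced by glucocorticoids were listed beside Tat. Of 13 tested other than Tat, 0 passed in T1R1, where Pck1 gave -3.11 ± 1.06 (adjusted p = 0.079) and Per1 0.47 ± 0.22 (adjusted p = 0.19). In T2R1 4 rose and 1 fell, beside 14.8% and 3.58% of all features. The metallothionein gene Mt1 was 0.77 ± 0.19 higher (adjusted p = 0.0127), the clock gene Per1 0.76 ± 0.22 higher (adjusted p = 0.0249), G6pc 0.69 ± 0.21 higher (adjusted p = 0.0319), and the transcription factor gene Zbtb16 0.96 ± 0.28 lower (log2 fold change -0.96, adjusted p = 0.027); Mt2, named after its values were seen, rose by 1.97 ± 0.64 (adjusted p = 0.0468). None passed in T3R1, where Dusp1 gave -0.64 ± 0.21 (adjusted p = 0.108) and Sgk1 -0.54 ± 0.19 (adjusted p = 0.122); both passed without control replicate 1, at -0.81 and -0.58. The list's median was -0.06, -0.04 and -0.26 in T1R1, T2R1 and T3R1. Mt1 and Per1 in T2R1 were 0.38 with the median of each array and lost their calls there. Per1 also lost its call without control replicate 1 or 3 or T2R1 replicate 1, 2 or 3, and Zbtb16 without control replicate 3 or 4 or T2R1 replicate 2, 3 or 4. Of 6 further enzymes of amino acid breakdown tested beside Tat, none passed in T1R1, T2R1 or T3R1, the smallest adjusted p being that of Gstz1 in T2R1 (-0.40 ± 0.15, adjusted p = 0.0716; limma).

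Markers of other tissues were read on the same arrays. The mean level of 2 lung markers tested of 5 was 2.02 in T3R1 replicate 1 and 2.01 in control replicate 1, and between -3.15 and -1.58 on the other 14 arrays; both of these hearts were also high in Alb, but T1R1 replicate 4, the highest in Alb, gave -1.58. Summed levels of the 8 fat markers ran between 4.61 and 7.36 in T1R1, 5.45 and 6.59 in T2R1, 6.28 and 7.42 in T3R1, and 6.26 and 8.12 in control hearts, and 3 of the 8 fell in T1R1, beside 2.11% of all features (limma). In T2R1 1 of 3 erythroid markers rose, Slc4a1 by 1.73 ± 0.55 (adjusted p = 0.0429, beside 14.8% of all features), and 1 of 2 choroid plexus markers fell, Clic6 by 1.76 ± 0.56 (adjusted p = 0.0403, beside 3.58%). The median r with the mean of Alb and Apoa1 was -0.09 for the fat markers, 0.48 for the lung markers, 0.06 for 2 thymus markers of 5, 0.05 for 3 pancreas and gut markers of 6, -0.33 for 2 kidney markers of 5, -0.37 for 3 erythroid markers of 4 on the array, 0.36 for 3 skeletal muscle markers of 6 and -0.39 for the 7 heart muscle markers. Of the choroid plexus markers, where Ttr is also made, 2 of 4 were tested and their median r was 0.26. Whether lung tissue had a part in the values of Alb and the genes that follow it was not tested.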

How the data were processed

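Total RNA of 16 hearts was labelled with Cy3 and read on 1 array per heart. The labels state that hearts were extracted individually. The intensity values used here, as the authors deposited them, came from Feature Extraction 10.7.3.1 with background subtracted and no scaling between arrays, per the file headers. The log2 values of the authors' deposited table share 1 distribution over the arrays and follow the ranks of the mean spot intensity; their method is not given in the sources used.

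Outlier spots were left out, the array's 75th percentile of log2 processed intensity was subtracted, and replicate spots were averaged. Probes entered the fit if every array of some group showed them well above background (31390 of 55681). The probe of highest mean stood for each gene name, giving 22763 features, with 102 values missing. Names were updated through RefSeq accessions for 26762 probes. Groups were compared in 1 linear model by limma 3.58.1 under R 4.3.3 (empirical Bayes, 12 residual and 2.26 prior degrees of freedom), with two-sided p values adjusted by Benjamini-Hochberg at a threshold of 0.05. The adjusted p values in the report come from this fit. Correlations with the mean of Alb and Apoa1 are given with no p, since this comparison was part of the choice of the genes.

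The genes, the lists and the tests were chosen with earlier results of these data known. Named are the 10 genes, the 4 genes of smallest p in each list described, and the genes nearest in pattern to the mean of Alb and Apoa1 (10) and to F7 (5). Of the genes this rule takes, 1 is not reported here, though the list counts include it. The alternatives were normexp (offset 50), quantile or median scaling, the authors' values, 2 other filters, every probe on its own, fewer arrays in the fit, the replicate block, array weights, the Alb and Apoa1 level as a covariate, and each array left out in turn. Both analyses were run on simulated data that held no slide effect. For the fit, changes were simulated in T3R1 against control only. These runs therefore cannot separate slide from exposure in T1R1 or T2R1 against control. Per the file headers, slide and scan number coincide.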

Additional observations from a re-analysis of the deposited data

Results flagged for a closer look

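In control hearts, F2 of replicate 1 (-3.11) stood apart from the other 3 (-6.70 to -6.50): the gap was 0.944 of the range of the group, above Dixon's 95% critical value for 4 samples. Those other 3 were not well above background, so the gap sets a detected value against values near background. Ttr of the same heart (-0.89, against -3.01 to -2.77) gave 0.887. Of 48 groups tested over the 12 probes these 2 were marked, and chance marks about 1 group in 20.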

How the results depend on the processing

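The log2 fold changes of F7, Klkb1, Fga and Tat in T1R1 and T2R1 stayed above 0 under every alternative run. In T3R1 against control Klkb1 was -0.08 and Fga -0.02 with normexp. The number of called features did not keep its size. In T1R1 against control, 2242 features were called, and 1107 with normexp, 1434 with quantile scaling, 10749 with the median of each array, 975 with only the 2 groups in the fit, 4229 with array weights, and 1341 (without T1R1 replicate 4) to 4059 (without control replicate 1) with 1 array left out. In T2R1, 4187 were called, and 2605 with normexp, 9160 with the median and 8758 with array weights. In T3R1, 158 were called, and 302 with normexp, 24 with the median, 361 with the authors' values, 16 without the filter, 540 with probes well above background on all 16 arrays, 2 with only the 2 groups (the same arrays as only that slide, also 2), 7663 with array weights, 57 with Alb and Apoa1 as a covariate, and 3 (without control replicate 2) to 6695 (without control replicate 1) with 1 array left out. With the replicate block the counts were 2266 in T1R1, 4100 in T2R1 and 43 in T3R1; the numbers gave no sign of pairing, as only 5 of 16 arrays had a same-numbered array as their closest match, and same-numbered arrays correlated between -0.32 and 0.39. T2R1 against T1R1 stayed at 0 calls by limma under every alternative run, with 1782 unadjusted p values under 0.05 in the reported fit. The correlation with the Alb and Apoa1 level, 0.51 for Klkb1, was 0.54 with Apoa1 alone and ran from 0.37 to 0.65 with 1 array left out. For Tat it was 0.34, against 0.77 within slide 2, and ran from 0.071 to 0.59 with 1 array left out. The causes were not tested. Fgg, F2 and Apoa1 were not well above background on every array of any group and so were not in the fit; on their own, their probes gave 1.92 ± 1.63, 1.86 ± 1.39 and 1.69 ± 0.98 in T1R1 against control on the log2 scale.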
